A study of Caenorhabditis elegans with 2 samples.

Results

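Cuticle collagens are the main structural proteins of the Caenorhabditis elegans exoskeleton, and their genes were examined here in a map of where the protein ALY-2 sits on chromatin at the fourth larval stage (L4). The group was chosen by gene name alone: protein-coding genes called col, plus dpy-2, dpy-3, dpy-5, dpy-7, dpy-8, dpy-10, dpy-13, dpy-17, rol-6, sqt-1, sqt-2, sqt-3, bli-1, bli-2 and lon-3. This gave 171 of the 19973 protein-coding genes on the nuclear chromosomes. The protein was located by chromatin immunoprecipitation followed by sequencing, on whole mixed-sex L4 larvae of strain OP217, genotype unc-119(ed3) III; ddIs172. That line stably carries a transgene for ALY-2 with GFP and FLAG fused to the C-terminal end of the protein, and both samples come from it. There was 1 group, of 2 biological replicates, so no conditions could be compared, and nothing in the labels says whether the replicates were grown separately. The map is therefore that of a transgene product over all tissues of the animal together, and no separate map of the epidermis, where collagens are made, is part of these data.

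The cuticle is built anew at each moult by the epidermis, which secretes collagens whose chains hold long runs of the repeat glycine, X, Y, where X and Y are often proline and hydroxyproline. The chains fold into trimers, are trimmed by proteases and are then cross-linked. Many single-gene mutations have visible effects on body shape, and the resulting names (Dumpy, Roller, Squat, Blister, Long) are older than the knowledge that the genes encode collagens. Different collagens are made at different points of the moulting cycle and in different stages, and L4 larvae go on to make the adult cuticle. ALY-2 belongs to the Aly/REF family, adaptor proteins that join newly made messenger RNA and help it leave the nucleus. A chromatin map of such a protein shows where it is held near DNA, not how much messenger RNA a gene makes.

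The values are the authors' peak lists on genome build ce11. The permissive lists hold peaks and background together and contain 17453 peaks for replicate 1, 29384 for replicate 2 and 3341 for both replicates combined. A further list of 193 peaks passed the authors' optimal threshold of reproducibility between replicates and is called the reproducible set. Each peak has a signal value of unstated scale, so signals were ranked only within a list, and a percentile gives the share of the list with a lower signal. Read depth is unknown. A gene was counted as having a peak when a peak overlapped by at least 1 bp its body, the 1000 bp before its start or the 500 bp after its end. Collagen genes ran from 521 bp (col-55) to 9946 bp (col-99), with a median of 1209 bp, and were set against 10267 other protein-coding genes of similar length, 906 to 3009.5 bp. Since short collagen genes lie among other genes, the gene under a summit, the point the authors give as a peak's centre, is named for the main peaks.

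Reference sequence (genome build WBcel235, the same assembly as ce11) at 6 of these loci shows examples of what lies under or beside collagen peaks. The first 3 sequences, on the plus strand and chosen for their RNA gene, hold a small structured RNA gene in capitals within 34 bp of a summit: a tRNA gene inside an intron of col-85 (chrII:12494713-12494824), a snoRNA gene past the end of col-128 (chrIV:11549783-11549908) and a tRNA gene past the end of col-181 (chrX:12106137-12106246). The RNA genes at col-128 and col-181 are on the minus strand, and the flanks of all 3 are in lower case. The fourth sequence, on the plus strand, is the region of the combined-list summit past the end of col-176 (chrX:10079185-10079305), with the 21 bases centred on the summit in capitals. It is shown as a shared peak with no gene under it, and its GC content is 23.1%. The last 2 sequences are coding stretches of col-90 (chrIII:7949100-7949219, plus strand) and col-114 (chrIV:7245808-7245927, minus strand, the coding strand) at the middle of overlapping peaks of both replicates, with glycine codons in capitals.
col-85: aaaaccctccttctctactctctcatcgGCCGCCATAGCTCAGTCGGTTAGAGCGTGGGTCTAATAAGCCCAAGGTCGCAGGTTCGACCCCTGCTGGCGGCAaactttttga
col-128: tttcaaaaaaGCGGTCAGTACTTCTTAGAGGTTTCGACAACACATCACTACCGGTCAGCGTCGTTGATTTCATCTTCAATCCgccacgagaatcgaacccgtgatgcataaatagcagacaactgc
col-181: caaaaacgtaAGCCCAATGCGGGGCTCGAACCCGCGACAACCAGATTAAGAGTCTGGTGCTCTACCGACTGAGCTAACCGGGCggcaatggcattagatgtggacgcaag
col-176: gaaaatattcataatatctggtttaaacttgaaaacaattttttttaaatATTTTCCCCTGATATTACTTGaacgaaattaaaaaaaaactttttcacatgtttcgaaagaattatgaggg
col-90: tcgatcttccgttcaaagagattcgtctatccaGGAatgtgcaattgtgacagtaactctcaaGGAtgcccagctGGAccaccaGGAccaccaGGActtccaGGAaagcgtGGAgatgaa
col-114: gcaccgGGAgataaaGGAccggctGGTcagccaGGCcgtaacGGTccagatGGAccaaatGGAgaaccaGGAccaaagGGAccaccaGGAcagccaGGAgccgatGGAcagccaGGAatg
The col-114 stretch holds 13 glycine codons in 120 bases, the Gly-X-Y repeat that defines the family, and is 60.8% GC. The col-90 stretch has 7 glycine codons, most of them near its 3′ end, and 50% GC.

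No collagen gene had a peak of the reproducible set. Of the 171 genes 0 were hit, against 0.886% of protein-coding genes of similar length, and a count of 0 allows a share of up to 1.75%, so no shortfall was detectable at this number of genes. With the other genes weighted to the collagen lengths, the same share corresponds to 1.64 genes. In the combined list 12 collagen genes had a peak, which is 7.02% (95% interval 3.68 to 11.9%, exact Clopper-Pearson), against 12.1% of genes of similar length. Weighting to the collagen lengths gave 11.9%, or 20.4 genes. The upper end of the interval thus lies beside the background share rather than clear of it, and weighting X and the autosomes apart as well brought the background to 11.5%, inside the interval. Intervals treat genes as independent and cover counting error only.

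Replicate 1 had a peak at 79 genes, 46.2% (38.6 to 54.0%), against 49.0% of genes of similar length. Replicate 2 had a peak at 118, 69.0% (61.5 to 75.8%), against 63.7%, and weighting to collagen lengths lowered that background to 60.9%, or to 60.3% with X and the autosomes apart. The background of similar length lies inside this interval and both weighted backgrounds lie just below it. Replicate 2 has the longer list, so more genes of any kind were hit in it. Both lists hit 57 collagen genes, and at 35 of them a peak of one replicate overlapped a peak of the other. That is 20.5% (14.7 to 27.3%), against 21.3% of genes of similar length. Replicate 1 alone hit 22, replicate 2 alone 61, and 31 genes, 18.1% against 23%, had no peak in either. Among those 31 are the adult collagen col-19, the larval collagens col-12 and col-14, and dpy-3, a collagen of the cuticle's furrows.

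**Figure D1:**
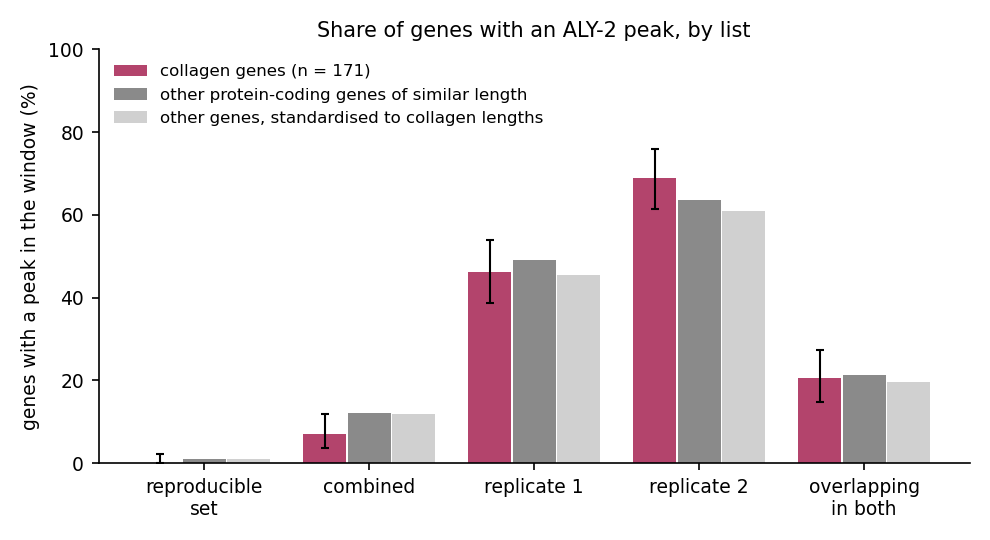
Share of genes (%) with a peak in the gene body, 1000 bp upstream or 500 bp downstream, for each peak list and for overlapping peaks of both replicates. Coloured bars are the 171 collagen genes with exact 95% intervals, dark bars the other protein-coding genes of similar length, light bars all other protein-coding genes weighted to collagen lengths. The collagen share is 7.02% against 12.1% and 11.9% in the combined list, and 69.0% against 63.7% and 60.9% in replicate 2.

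The family is spread over all 6 chromosomes, with 42 genes on IV, 33 on V, 31 on II and 30 on X. The 30 X-linked collagens had a combined-list peak at 1 gene (3.33%, background 8.49%), and the 141 on autosomes at 11 (7.8%, background 12.6%). In replicate 1 the X-linked genes were hit in 53.3% and the autosomal ones in 44.7%, against 44.3% and 49.6%. Replicate 2 gave 60% and 70.9%, against 62.0% and 64.0%. The order of X and autosomes therefore differed between the replicates, and its cause was not tested.

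Peaks at collagen genes ranked low within the combined list. The strongest peaks at the 12 genes had signals from 16.7 to 30.6 with a median of 17.6, while genes of similar length that had a peak had a median of 19.9. In percentiles of the list the medians were 22.8 and 54.2. A peak at or above the list's median signal was found at 4 collagen genes (2.34%, background 6.49%), and a peak in the top 25% by signal at 3 (1.75%, background 3.52%). The highest combined signal, 30.6 at col-115, lies under the lowest signal of the reproducible set, 32.6. The authors' −log10 q-value, which is higher for better supported peaks, was 1.42 for that peak. For the strongest combined peak of the other genes it ran from 0.0232 at col-8 to 0.667 at col-85. At col-52, the highest collagen signal of replicate 1, it was 0.222. Most peaks named below are thus weakly supported, in lists that hold background too. In the replicate lists collagens and background had much the same strength. In replicate 1 the medians were 9.37 at collagens and 9.33 at the other genes. In replicate 2 they were 5.64 and 5.68. A peak in the top 10% by signal was found at 6 collagens in replicate 1 (3.51%, background 6.61%) and at 16 in replicate 2 (9.36%, background 10.7%). Over the 57 collagens hit in both lists, the strongest signals in the replicates had a Pearson r of 0.058 and a Spearman rho of 0.073 across genes. Over 3665 genes of similar length these were 0.383 and 0.205. The strongest peaks of a gene in the replicates can lie in different places. Overlapping peaks of any strength were found at 61.4% of the 57 collagens and 59.7% of the 3665 other genes. Genes are not independent replicates and these correlations are descriptions.

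**Figure D2:**
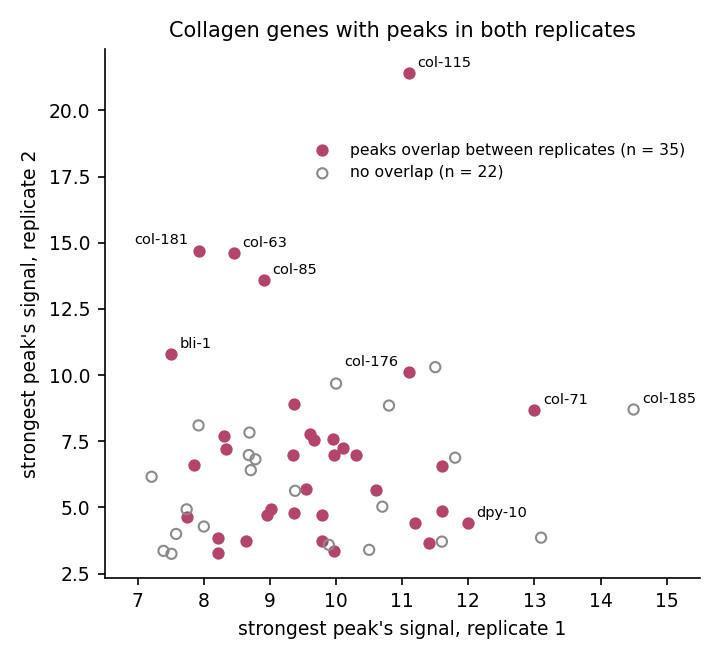
Signal of the strongest peak in replicate 1 (x axis) and replicate 2 (y axis), in the authors' units of unstated scale, for the 57 collagen genes with a peak in both lists. Filled points are the 35 genes with some pair of peaks that overlaps between replicates, which need not be the strongest peaks plotted. Of the filled points, col-115 (11.1 and 21.4) and col-176 (11.1 and 10.1) are the ones above 10 on both axes.

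Of the 12 collagen genes in the combined list, 7 have the peak at or past the gene's end in their own direction of transcription, with the summit between the last 200 bp and 595 bp past it. Of the 11 combined summits inside collagen windows, 18.2% lay in the last 200 bp and 36.4% downstream. At genes of similar length these shares were 9.72% and 22.9%, and 11 summits are too few for a firm comparison. The strongest peak of the 7 genes is at col-115 on chromosome IV, where 2 adjoining peaks had combined signals of 30.6 and 24.3 (92.5th and 80.9th percentiles). In replicate 1 their counterparts had signals of 7.69 and 11.1, and in replicate 2 of 21.4 and 15.2. Both summits lie in the 3′ UTR of rig-4, a cell-surface protein of the immunoglobulin superfamily, whose gene runs towards col-115 from the other strand. The ends of both genes meet under the stronger peak, and the other peak lies wholly inside rig-4. At col-176 on X the combined signal was 20.3, with 11.1 in replicate 1 and 10.1 in replicate 2. No annotated gene lies under the summit, which is 517 bp past the col-176 end and so outside its window. At col-71 the summit lay 16 bp past the end, with 16.9 combined and 13 in replicate 1, while the overlapping replicate 2 peak, inside the gene, had 4.93. At col-89 the combined summit (16.7) was in the gene's own 3′ UTR, with 10.3 in replicate 1 and 6.98 in replicate 2. At col-151 it was at the end of the coding sequence, with 17 combined, 11.6 in replicate 1 and 4.87 in replicate 2. At col-128 the combined signal was 19.1 and the replicate 2 signal 15.4, beside the snoRNA gene shown above, and replicate 1 had no peak. At col-117 the combined summit (18.1) was 595 bp past the end in an intron of T28C6.5, outside the col-117 window, and replicate 2 had 16.5 while replicate 1 had no peak.

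At the other 5 genes the peak lies before the gene or inside it. Inside col-85, in an intron, the combined signal was 25.2, with 13.6 in replicate 2 and 7.45 in replicate 1. The tRNA gene printed above is 18 bp from the combined summit and holds the replicate 1 summit. A noncoding RNA gene that overlaps this tRNA gene, T21B4.19, holds the summits of both replicates but not the combined one. Upstream of col-63 on chromosome I, 604 bp before its start, the combined signal was 24.8, with 14.6 in replicate 2 and 8.46 in replicate 1. All these summits are inside the 3′ UTR of ceh-8, a homeobox gene, and also inside ZK265.11, a noncoding RNA gene of 76 bp. Upstream of dpy-10, a furrow collagen whose mutants are short and fat, the combined signal was 16.9. Its summit is 276 bp before the dpy-10 start within an intron of the overlapping gene T14B4.19, and replicates 1 and 2 had 12 and 4.42. The col-38 peak, 17.2, is 393 bp before the start at a pair of noncoding RNA genes, F54C9.16 and F54C9.17, between col-38 and the ribosomal protein gene rpl-5. Replicate 2 had 7.87 there and replicate 1 had no peak at col-38. The col-8 peak, 16.7, is 743 bp before the start in the 5′ UTR of rfl-1, an enzyme of the ubiquitin-like NEDD8 pathway, with 7.74 in replicate 1 and 4.64 in replicate 2. Where each peak was given only to the gene nearest its summit, 5 collagens remained (col-71, col-85, col-89, col-151 and col-176), 2.92% against 7.19% of genes of similar length.

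**Figure D3:**
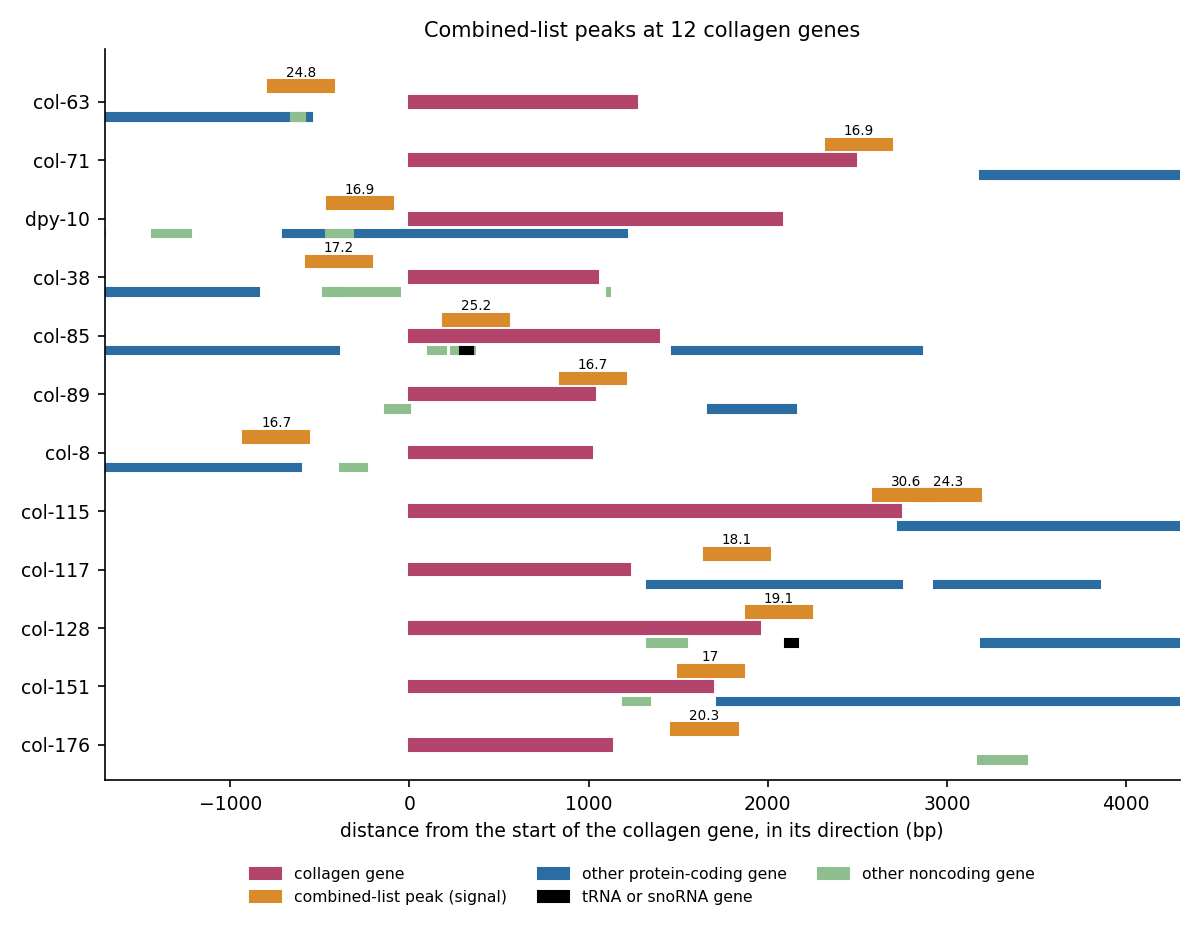
The 12 collagen genes with a combined-list peak, drawn to scale by distance in bp from the collagen gene's start in its own direction. The number above each peak is the authors' combined signal, and other protein-coding, noncoding, tRNA and snoRNA genes are drawn below. At col-115 the peak of 30.6 lies over the end of a neighbour and that of 24.3 lies inside this neighbour. The peak at col-176 (20.3) lies between genes.

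The 15 collagens known from mutants with a visible shape had a combined-list peak at 1 gene (6.67%), a replicate 1 peak at 10 (66.7%), a replicate 2 peak at 12 (80.0%) and overlapping peaks at 7 (46.7%). The 156 genes named col were hit in 7.05%, 44.2%, 67.9% and 17.9%. The background over similar lengths stands above, and the 15 genes are too few for a firm comparison. Among the 5 furrow collagens, which form the ring-like grooves of the cuticle, overlapping peaks were found at dpy-7, dpy-8 and dpy-10. At dpy-7, past its end with no other gene there, replicate 1 had 9.37 and replicate 2 had 8.91 (59.0th and 88.5th percentiles). A further pair of peaks inside dpy-7 did not overlap, with 8.4 in replicate 1 and 4.66 in replicate 2. At dpy-8 the overlapping peaks, past its end at C31H2.14, had 7.92 and 4.06, and the replicate 1 summit lay outside the dpy-8 window. The strongest peaks of dpy-8 were in different places. Replicate 1 had 8.3 in an intron of C31H2.3, with the summit again outside the window, and replicate 2 had 7.71 in the dpy-8 coding sequence. At dpy-2 replicate 1 had 13.2, in the noncoding RNA gene T14B4.15, and replicate 2 had no peak. At dpy-3 neither had one.

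Among the other Dumpy collagens, dpy-5 had overlapping peaks before its start, 9.35 in replicate 1 and 4.11 in replicate 2, and dpy-13 and dpy-17 had peaks in replicate 2 alone, up to 6.29 and 6.15. Of the Roller, Squat and Long genes, whose mutants twist, shorten or lengthen the body, only lon-3 had overlapping peaks, in its coding sequence, with 9.66 in replicate 1 and 3.87 in replicate 2. The lon-3 gene lies inside an intron of ogdh-2, an enzyme of the citric acid cycle. At sqt-3 replicate 2 had 7.31 in the coding sequence and 8.76 past the end, at sqt-1 it had 9.69 in the coding sequence, and replicate 1 had no peak at either. At sqt-2 replicate 1 had 10.8 past the end in enee-1 and replicate 2 had 8.85 in the coding sequence. At rol-6, whose dominant mutant form is a common marker of transgenic worms, replicate 1 had 7.67 in an intron and replicate 2 had none. Both Blister collagens, which build the struts between the layers of the adult cuticle, had overlapping peaks, but within larger genes. At bli-2, inside an intron of the centriole kinase gene zyg-1, the overlapping peaks past its end had 9.77 in replicate 1 and 7.6 in replicate 2. At bli-1, inside an intron of dph-2, the strongest replicate 2 peak, 10.8, had its summit in a dph-2 coding exon, and it overlapped a replicate 1 peak of 7.51, as did a weaker replicate 2 peak of 3.86.

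The stage examples were col genes best known from one stage, and 9 of the 10 listed were found by name. None had a combined-list or overlapping peak, where the backgrounds are 12.1% and 21.3%, so 9 genes are too few to read anything from these zeros. A replicate 1 peak was found at 2 (22.2%, background 49.0%) and a replicate 2 peak at 5 (55.6%, background 63.7%). Of the adult collagens, col-7 had 7.97 in replicate 1 alone, in a coding exon of C15A11.4, and col-19 had no peak. Of the dauer collagens, col-40 had 10.7 in replicate 1, past its end in an intron of T13B5.9 with the summit outside its window. In replicate 2 col-40 had 5.03, 805 bp before its start, and col-2 had up to 8.21 in replicate 2 alone. Of the larval collagens, col-10, col-13 and col-17 had 5.44, 3.39 and 3.73 in replicate 2 alone, each upstream and at col-10 in the 3′ UTR of B0222.11, and col-12 and col-14 had none.

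**Figure D4:**
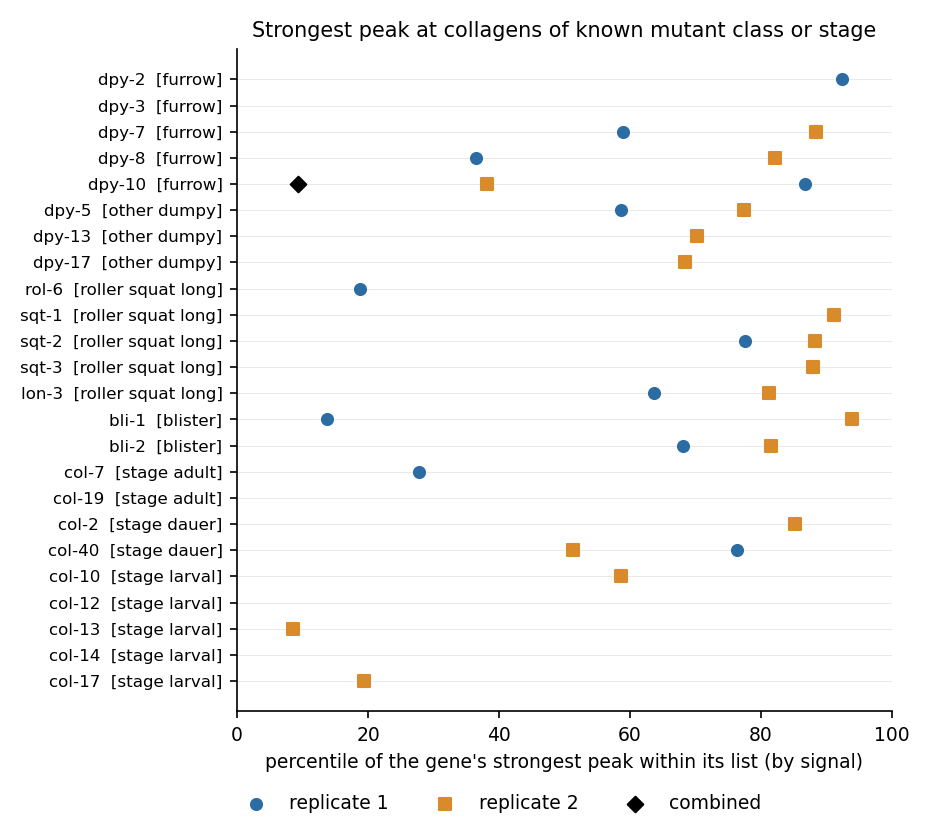
Percentile, within its list, of the strongest peak at each collagen of known mutant class or stage, by signal (x axis, 0 to 100). Circles are replicate 1, squares replicate 2, and the diamond is the combined list, where dpy-10 sits at 9.25. Rows without a symbol (dpy-3, col-19, col-12 and col-14) had no peak in any list.

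In replicate 1 the highest signals were at col-52 (14.7, coding exon), col-185 (14.5, coding exon near the start), col-101 (14.3, upstream in an intron of the kinase gene drl-1), dpy-2 (13.2) and col-109 (13.1, intron). They were followed by col-71 (13), dpy-10 (12), col-111 (11.8, summit in the coding sequence of psr-1, a phosphatidylserine receptor gene), col-151 and col-146 (11.6 each). The col-146 summit lay in the coding sequence of idpc-3, and the summits at col-111 and col-146 were outside the windows of these collagens. In replicate 2 they were at col-115 (21.4), col-117 (16.5), col-128 (15.4), col-181 (14.7, beside the tRNA gene printed above), col-63 (14.6) and col-85 (13.6). Then came col-84 (11.3, past its end in a coding exon of the nucleoporin gene npp-3), bli-1 (10.8), and col-77 and col-140 (10.5 each, both in their own coding exon). Ranked by the lower of the percentiles of overlapping peaks, the best shared were col-176 (80.5th in replicate 1, 92.3rd in replicate 2), col-115 (80.4th, 97.9th), col-89 (71.9th, 77.2nd) and col-90 (70.2nd, 74.4th). Next were bli-2 (65.5th, 81.5th), col-114 (61.8th, 62.7th), col-42 (62.8th, 61.3rd), dpy-7 (59.0th, 88.5th), col-108 (52.3rd, 50th) and col-71 (91.6th, 49.3rd). At col-90 and col-114 the summits of both replicates were in coding exons, in the stretches printed above or beside them. At col-42 they lay 785 bp before the start in both replicates, with signals of 9.6 and 5.6 and no gene there. At col-108 they lay on either side of the gene's start, with 9.01 in replicate 1 and 4.95 in replicate 2.

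Most hit collagens had a single peak. The counts of peaks per gene and of shared peaks were made for collagens only. They have no background beside them, so they show no trait particular to the family. In replicate 1, 57 genes had 1 peak, 17 had 2 and 5 had 3. In replicate 2, 62 had 1, 34 had 2, 15 had 3 and 7 had more, up to 6 at col-99, the longest of the genes. Few collagens shared a peak with each other, since 100 distinct peaks in replicate 1 and 198 in replicate 2 accounted for the genes hit, with 6 and 7 of them touching more than one collagen.

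Along the genes, replicate 1 had 91 summits within the collagen windows and replicate 2 had 187. The first 200 bp of the gene, around the start of transcription, held 6.59% and 4.28% of them, against 6.68% and 6.65% at genes of similar length. The 1000 bp upstream held 37.4% and 31%, against 29.3% and 31.3%, and made up 33.4% of the bases in the collagen windows. The middle of the gene held 31.9% and 32.6%, against 41.1% and 37.8%, and made up 36.6% of the bases against 42.6%. The 500 bp past the gene's end held 49 summits in replicate 2, 26.2% against 17.3%, and 18.7% against 16.5% in replicate 1, where those bases made up 16.7% of the windows. Among summits at or above the list's median signal, the share past the end was 37.2% (32 of 86) against 18.8% in replicate 2, but 16.7% (7 of 42) against 17.9% in replicate 1. The replicates thus differed in the share past the gene's end, and that difference was not tested. Of the 49 summits, 26 (53.1%, background 50.4%) lay in another gene. Introns of the collagens held 7.69% of summits against 17.1% in replicate 1 and 11.8% against 14.9% in replicate 2. Coding exons held 29.7% against 30.5% and 27.3% against 28.3%. The share of window bases in introns was not worked out, so the intron shares show no depletion. Median coding length was 912 bp at a median gene length of 1209 bp for collagens, and 948 bp at 1740 bp for the other genes.

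**Figure D5:**
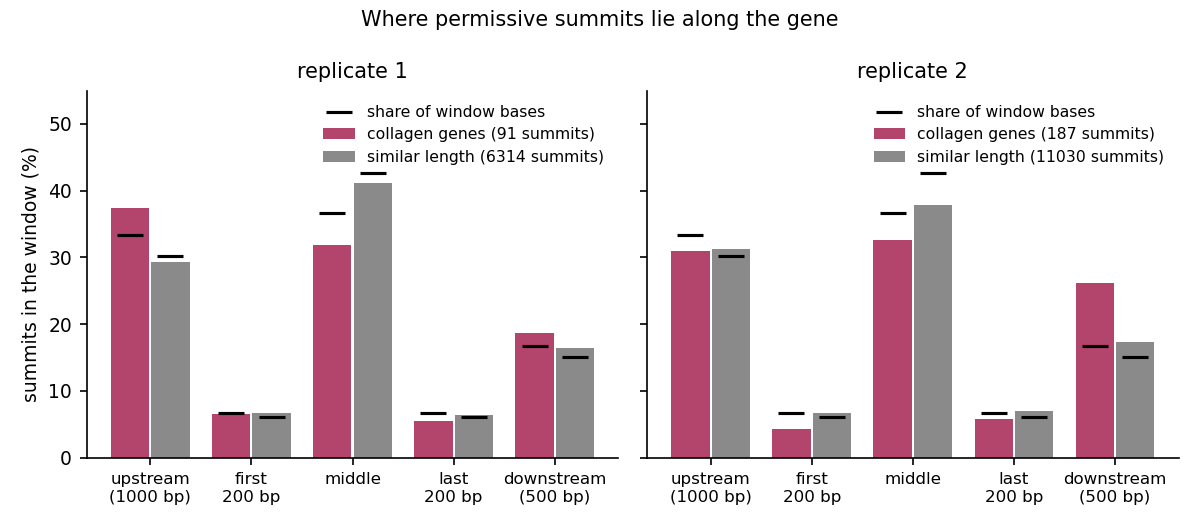
Share (%) of permissive-list summits in 5 parts of the gene window, for replicate 1 (left) and replicate 2 (right). Coloured bars are the collagen genes (91 and 187 summits), grey bars the protein-coding genes of similar length, and each black line is the share of window bases in that part. The downstream bar of replicate 2 is 26.2% against 17.3%.

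Small structured RNA genes lay in the windows of 8 collagens, counting tRNA, snoRNA, snRNA and rRNA genes. Of these 8, 2 (25%) had a combined-list peak, col-85 and col-128, 6 (75%) a replicate 1 peak and 7 (87.5%) a replicate 2 peak. Among genes of similar length with such an RNA gene in the window, 318 in all, 40.3% had a combined-list peak, 67.9% a replicate 1 peak, 89.3% a replicate 2 peak and 8.49% a peak of the reproducible set. In replicate 2 a summit was within 50 bp of the RNA gene at 6 of the 8: 8 bp at col-185, 16 bp at col-99, 17 bp at col-181, 22 bp at col-128, 40 bp at col-72 and 43 bp at col-85. In replicate 1 a summit was this close only at col-85, where it was in the tRNA gene. Of the 318 similar genes, 39.0% had a summit this close in replicate 2 and 19.5% in replicate 1. The difference was not tested, and 8 collagens are few. Without these genes 163 collagens were left, of which 10 (6.13%) had a combined-list peak, against 11.2% of similar genes without an RNA gene.

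A further 25 collagens lie wholly inside a larger protein-coding gene. They include col-39, col-79, col-80 and bli-1 in dph-2, col-92, col-93 and col-94 in the dynein gene dhc-4, bli-2 in zyg-1 and lon-3 in ogdh-2. None of the 25 had a combined-list peak, where 10.6% of 321 nested genes of similar length did, 14 (56.0%, background 47.0%) had a replicate 1 peak and 12 (48.0%, background 70.7%) a replicate 2 peak. The 146 other collagens had a replicate 1 peak in 44.5% (background 49.1%) and a replicate 2 peak in 72.6% (background 63.5%). The nested genes stood above the others in replicate 1 and below them in replicate 2, differences that were not tested.

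The collagen coding sequences share a composition that comes with the family. The rule used names only, but those names stand for genes with the glycine repeat, so the contrasts below describe the choice of genes. Their median coding length was 912 bp and their median GC content 55.1% (43.4 to 62.6%), against 41.6% for genes of similar length. Glycine codons made up a median of 20.7% of codons, against 4.67%, and proline codons 15.0%, against 4.14%. The highest glycine share was 33.4%, at col-51. The lowest was 0.722% at col-17 in its annotated reading frame, and the next lowest was 9.7% at bli-1. The part of this composition in the counts of peaks was not tested.

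Other genes of cuticle making were taken as a list of 33, for collagen hydroxylation and folding, processing, cross-linking, transcription, moulting and the moulting clock. They are much longer, 2077.4 to 18270.8 bp between the 5th and 95th percentiles with a median of 5459 bp, and were set against 9433 genes in that range. Unlike the collagen backgrounds, this one was not weighted by length within the range, so no excess can be read from the shares. A peak of the reproducible set was found at 4 (12.1%, 3.4 to 28.2%, background 1.57%) and a combined-list peak at 13 (39.4%, 22.9 to 57.9%, background 21.0%). The 4 were pdi-2, a protein disulfide isomerase subunit of the collagen prolyl hydroxylase (signal 46.9, 21 bp past the gene's end), lin-29, a transcription factor of the larval to adult switch (37.5, 3′ UTR), lrp-1, a lipoprotein receptor needed for moulting (35.2, coding exon), and fbn-1, a fibrillin-like matrix protein (32.8, coding exon). The combined list added noah-1, bli-4, blmp-1, lin-42, mlt-7, qua-1, myrf-1, dpy-11 and mlt-11. The list is small and was drawn up by function with earlier results of these data known, so it is no independent evidence, and gene length differs from that of the collagens, so the shares of the 2 lists cannot be compared directly. Of 9 other collagens that the naming rule leaves out, 0 were in the reproducible set, against 1.24% of 14855 genes in their own length range. In the combined list 2 had a peak (22.2%, background 16.9%), and 9 genes are too few for a firm comparison. The 2 were the basement membrane collagens emb-9 (21.6, upstream in the noncoding RNA gene K04H4.8) and let-2 (26.8, 3′ UTR).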

How the data were processed

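Per the labels, chromatin of the L4 larvae was sheared with a sonicator microtip before ALY-2 was immunoprecipitated. The authors deposited peak lists for ce10 and ce11, called with a control alignment, per the descriptions that accompany them. The ce11 lists were used. The ce10 lists were not used here, since no annotation of that build was at hand, and no coordinate was converted. In each deposited list the signal is the authors' value per peak, of unstated scale, and a second column gives each peak's −log10 q-value, which was not used to select peaks. The summit is the deposited offset from the peak start. Not given in the sources used here are the aligner, the program that called peaks, any version and the reproducibility threshold. Read depth is unknown. All sample columns were matched (0 unmatched).

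Genes came from the Ensembl release 115 annotation of WBcel235, and sequences from the RefSeq genome of that assembly. Similar length means the 5th to 95th percentile of the collagen gene lengths. Length weighting used 10 length bins of the collagens. Intervals are exact (Clopper-Pearson) at 95%, and the limit for a count of 0 uses 3 counts. Coding composition is that of each gene's longest coding sequence. No test was run, as there is 1 group. The overlap code was checked on planted peaks. The combined list and reproducible set come from the same 2 replicates as the other lists, so overlaps between lists are not independent. The members, role lists and positions were chosen with earlier results of these data known. Named genes were the collagens with a combined-list peak, those in the role and stage lists, the 10 highest signals in each replicate, the 10 best shared between replicates, members of the other lists with a peak, and neighbours under a named summit. The small RNA and host genes, with the collagens that lie near or in them, and col-51, col-55 and col-99 were named after their values were seen. Alternatives were a summit rule, other windows, stricter signal, shorter lists, each replicate alone and other backgrounds. A rule giving each peak to its nearest gene was added after seeing the data. Python 3.11.15, numpy 2.4.6, pandas 2.3.3, scipy 1.17.1 and matplotlib 3.10.9 were used.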

Additional observations from a re-analysis of the deposited data

How the results depend on the processing

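No paired analysis was possible because the study has a single group. The counts of collagens depend on the window and list, and the background over genes of similar length moved with them. Against 12 in the combined list (7.02%, background 12.1%), the gene body alone gave 6 (3.51%, 7.64%), the start window alone (1000 bp before to 200 bp after the start) 5 (2.92%, 5.91%), peaks at or above the list's median signal 4 (2.34%, 6.5%), and the nearest gene alone 5 (2.92%, 7.19%). Against 79 in replicate 1, these gave 46 (26.9%, 34.2%), 49 (28.7%, 25.7%), 45 (26.3%, 28.5%) and 52 (30.4%, 35.9%), and the 3341 strongest peaks gave 14 (8.19%, 12.2%). Against 118 in replicate 2, the gene body gave 82 (48.0%, 48.0%), the start window 65 (38%, 39.5%) and the median signal 69 (40.4%, 40%). The nearest gene alone gave 84 (49.1%, 49.8%) and the 3341 strongest 16 (9.36%, 12%). Weighted to collagen lengths, the gene body and nearest gene backgrounds in replicate 2 were 43.6% and 45.1%. Against 35 with overlapping peaks, the gene body gave 19 (11.1%, 13.3%), the start window 16 (9.36%, 10.2%), the median signal 8 (4.68%, 8.71%) and the 3341 strongest 0 (background 2.4%). Leaving out one replicate and taking as many strongest peaks of the other gave 14 (background 12.2%) to 16 (background 12%) in place of 12. For the reproducible set it gave 0 (background 0.682%) to 1 (background 1.02%) in place of 0, where the 1 was col-115 in replicate 2. Overlap between replicates cannot be computed with one left out. Other cuticle-making genes in the combined list fell from 13 to 2 in the start window, and the other collagens from 2 to 1 with the gene body alone and 1 in the start window. No background of matching length was made for these lists in the smaller windows, so these falls are not set against one. The share of replicate 2 summits past the gene's end moved from 26.2% to 37.2% at or above the median signal. Smaller windows and shorter lists hold fewer peaks by construction. Over all other protein-coding genes, of any length, the backgrounds were 1.28%, 16.2%, 55.6%, 69.0% and 27.3%. With the main window, the replicate 2 share of the collagens was thus above the genes of similar length but equal to all genes. With the gene body or the nearest gene alone it was not above the genes of similar length.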
